A study of Mus musculus with 9 samples.

Results

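Clustered histone genes were followed across 3 mature B cell subsets of the mouse spleen. The members are the 67 symbols of the deposited expression table that begin with Hist1h, Hist2h, Hist3h or Hist4h, among 23954 symbols in all. They filled 75 of the 24459 rows, and the rows of the 8 symbols listed more than once were averaged. The choice used the gene names alone and no measured value.

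Follicular B cells with high IgD (FO), follicular B cells with low IgD (BDL) and marginal zone B cells (MZ) were each represented by 3 libraries, for 9 in all. All came from naive mice of 8 to 10 weeks, and each library pooled the spleens of 5 mice. The gate for FO and BDL cells was B220+IgMintCD21intCD23+CD93-, divided by IgD, and the gate for MZ cells was B220+IgMhiCD21hiCD23-CD93-. The labels give the strain as C57/BL6, whereas the methods of the study name B10.PL mice for the sequenced cells. Libraries with the same replicate number carry the same number in their titles in every subset. It is read here as a sort date, which the titles do not state. The p-values measure the spread between pooled libraries.

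Core histones H2A, H2B, H3 and H4 form the octamer around which DNA is wrapped, and linker histone H1 binds where the DNA enters and leaves it. The clustered genes encode the bulk supply of these proteins and are transcribed mainly while DNA is being copied. Their mRNAs usually end in a short stem-loop bound by the protein Slbp, in place of a poly(A) tail, and are degraded when replication stops. Some histone variants encoded outside the clusters, such as H3.3 and H2A.Z, are made from polyadenylated mRNAs throughout the cell cycle. Resting splenic B cells divide rarely, whereas B cells that respond to antigen divide quickly.

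Values are FPKM (fragment counts scaled to transcript length and library depth), so levels of different genes can be compared. The step size of low values placed each library at about 54400000 to 73000000 fragments, and 59.3 to 72.2% of the low values used lay within 0.1 of a whole fragment, where 20% would by chance. BDL replicate 2 stood apart from the other 8 libraries on the second principal component, which held 17.1% of the variance, with a score of 79.4 where the others lay between -34.7 and 28.9. Results that rest on it are therefore also given without it. The subset labels fitted their markers: Cr2, the gene of CD21, was at 400 to 505 FPKM in MZ libraries and at most 149.7 elsewhere, and Fcer2a, the gene of CD23, was at 26.0 to 34.5 FPKM in MZ libraries and at least 389 elsewhere. Summed over 9 T cell genes the level was 10.2 to 12.0 FPKM in FO, 20.8 to 26.5 in BDL and 9.20 to 15.8 in MZ libraries, and summed over the 7 erythroid genes in the table it was 2.14 to 4.36, 7.16 to 8.24 and 3.21 to 5.72. All 9 T cell genes had a higher mean in BDL than in FO cells. They include Cd5, whose protein the study found marginally raised on BDL cells. Of the 6 erythroid genes with a value, 3 had a higher and 3 a lower mean in BDL than in FO cells. The 7 genes of transitional B cells summed to 317 to 379 FPKM in FO, 490.0 to 719.8 in BDL and 388 to 482 in MZ libraries, and the 6 plasma cell genes to 186 to 223, 128 to 207 and 224 to 296. The single plasma cell genes did not all follow their sum. Of the 5 tested, 3 had a higher and 2 a lower mean in BDL than in FO cells, with a median log2 difference of 0.65. The part of RNA from these cell types in the differences below was not tested.

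The stem-loop was searched for in the genome of the build to which the reads were aligned (NCBIM37, mm9), within 300 nt after each stop codon. It was found in 61 of the 65 members with an annotated coding sequence, 21 to 58 nt after the stop codon with a median of 31. The 16-base core falls into a form shared by H1, H2A, H2B and H3 genes and a form carried by H4 genes. The first form had the core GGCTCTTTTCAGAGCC in 37 of 48 genes outside H4, and the second had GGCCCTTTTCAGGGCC in 8 of 13 H4 genes. The lines below show it for members on which the results turn, with the core in capitals and 5 flanking bases on each side in lower case.
Hist1h1c: caaaaGGCTCTTTTCAGAGCCaccac
Hist3h2a: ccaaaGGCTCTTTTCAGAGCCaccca
Hist2h2aa1: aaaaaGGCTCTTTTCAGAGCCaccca
Hist1h2bc: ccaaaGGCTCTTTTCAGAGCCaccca
Hist1h2bl: tcaaaGGCTCTTTTAAGAGCCaccca
Hist1h3a: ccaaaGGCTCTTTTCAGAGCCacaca
Hist1h4c: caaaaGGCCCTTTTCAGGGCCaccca
Hist1h4d: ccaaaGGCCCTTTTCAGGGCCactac
Hist1h4i: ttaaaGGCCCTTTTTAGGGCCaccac
Hist1h4n: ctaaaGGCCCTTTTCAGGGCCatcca

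All 67 members had a value above 0 in at least 1 library, and 64 had one in every library. Levels were low for most of them. Only 5 members reached a mean of 5 FPKM over the 9 libraries, and these 5 held 50.5% of the summed FPKM of all members. They were the linker histone gene Hist1h1c at 21.6 FPKM, the H2A genes Hist3h2a at 18.8 and Hist2h2aa1 at 10.6, and the H2B genes Hist1h2bc at 7.53 and Hist3h2ba at 6.11. The median of the other 62 members was 0.851 FPKM. No H3 gene exceeded 0.804 FPKM and no H4 gene exceeded 2.08 FPKM. At the minimum set for testing, a mean of 0.5 FPKM, 50 members passed and 17 did not, and 9 of the 12 H3 genes were among the latter.

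**Figure D1:**
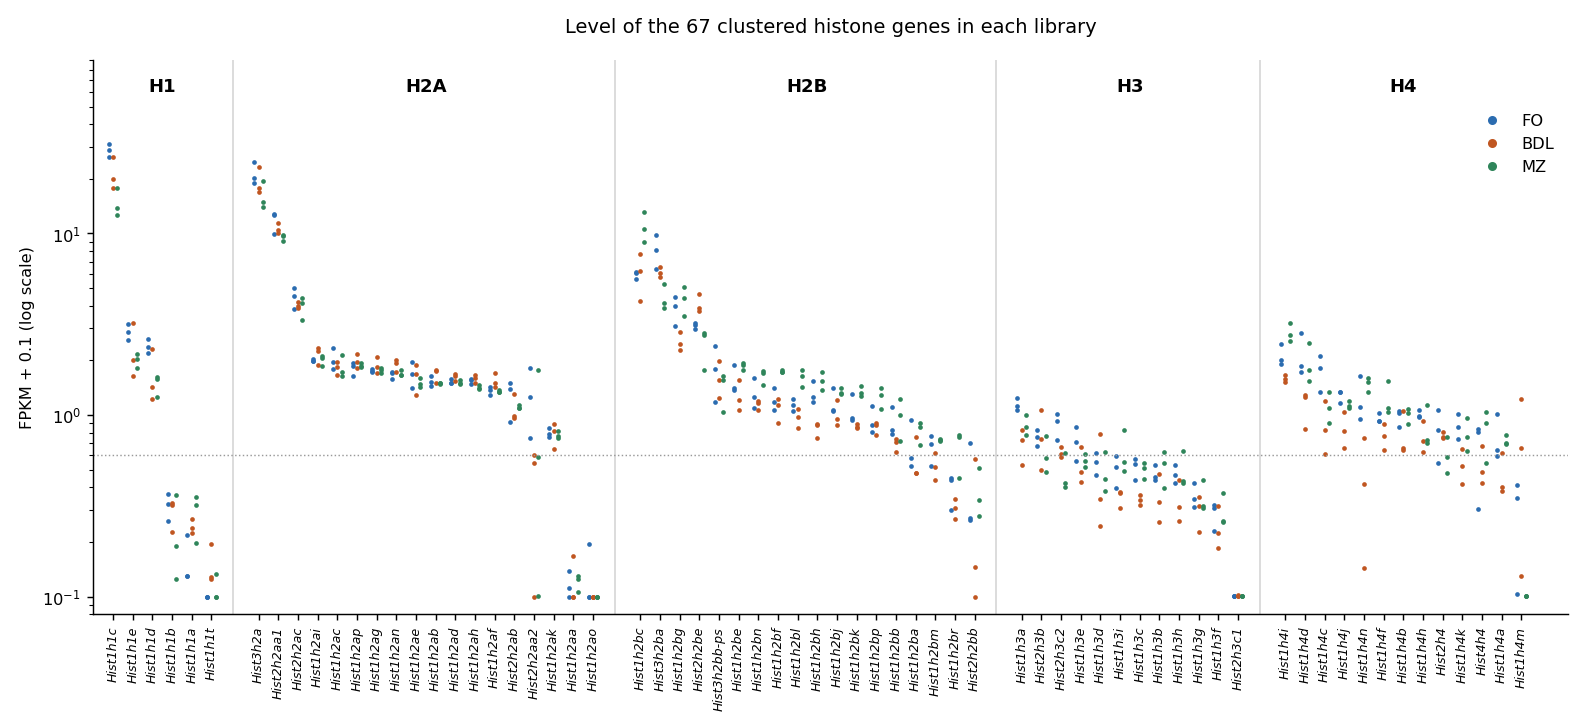
Each point is 1 library, with FPKM plus 0.1 on a log axis and the 67 members grouped by histone class and ordered by mean level. The dotted line marks the minimum mean of 0.5 FPKM, and only Hist1h1c, Hist3h2a, Hist2h2aa1, Hist1h2bc and Hist3h2ba had a mean of at least 5 FPKM.

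The library kit is named as a stranded mRNA kit in the methods of the study and as not strand specific in the labels, and mRNA kits of that maker select RNA with a poly(A) tail. Transcripts that end at the stem-loop would therefore be captured poorly, and the values here are levels of the RNA that entered the libraries. The annotation extended more than 100 nt past the stem-loop in 19 members, and 4 of the 5 members of at least 5 FPKM were among them. The median of these 19 was 1.50 FPKM and they held 55.2% of the summed member FPKM. The 42 members whose annotated transcript ended within 100 nt of the loop had a median of 0.851 FPKM and held 38.6%. Hist2h2aa1 was the 1 member of these 42 above 5 FPKM. Annotated transcripts of Hist1h1c ran 839 nt past the loop and those of Hist3h2a 1487 nt, and that of Hist1h2bc had 2 exons and skipped it. Which transcript ends gave rise to the reads was not tested.

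Summed over the members, the level was 146, 135 and 148 FPKM in the 3 FO libraries, 117, 128 and 115 in the BDL libraries and 119, 116 and 128 in the MZ libraries. Every FO library stood above every BDL and MZ library. The means were 143 ± 6.85 in FO, 120 ± 6.93 in BDL and 121 ± 5.99 in MZ (SD, n = 3). Fewer cells with these transcripts and less of them per cell cannot be told apart in bulk RNA.

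The classes did not share this order. H1 summed to 34.1 ± 2.64 FPKM in FO, 25.5 ± 5.75 in BDL and 18.3 ± 2.92 in MZ cells, and the BDL libraries overlapped with both other subsets. H2A was at 56.2 ± 6.03, 52.5 ± 2.31 and 47.1 ± 4.07, and H2B at 33.7 ± 3.35, 29.0 ± 2.57 and 37.6 ± 1.49. MZ thus had the lowest mean for H2A and the highest for H2B. The libraries of all subsets overlapped for H2A. For H2B the FO libraries overlapped with both other subsets, whereas every MZ library lay above every BDL library. H4 was at 15.1, 11.7 and 13.7 FPKM in FO libraries, 10.7, 7.37 and 8.44 in BDL libraries and 13.8, 11.8 and 14.4 in MZ libraries. The BDL libraries all lay below those of the other subsets for H4. H3 was at 5.54 ± 0.685, 3.89 ± 1.01 and 4.71 ± 0.868, and there the MZ libraries overlapped with both other subsets.

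**Figure D2:**
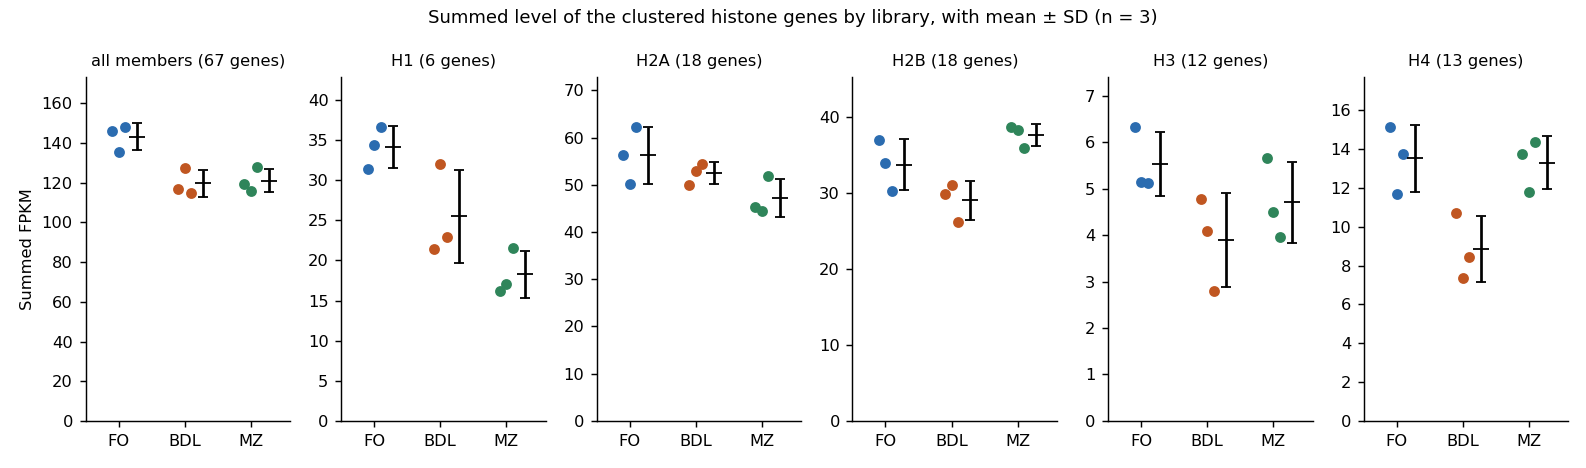
Summed FPKM of all 67 members and of each histone class, with 1 point per library and the mean ± SD of 3 libraries beside it, and every axis starting at 0. The mean of H1 is highest in FO cells at 34.1 FPKM, that of H2B highest in MZ cells at 37.6, and that of H4 lowest in BDL cells at 8.84. Libraries of BDL and FO overlap for H1, and those of MZ and FO for H2B.

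The comparison of BDL with FO cells asks whether the IgD-low cells, which come from the same follicular gate, carry another level of these mRNAs. Of the 50 members tested, 9 had a higher and 41 a lower mean in BDL cells. The median difference on the log2(FPKM + 0.1) scale was -0.23, beside 0.05 over all 11519 genes tested, of which 43.1% had a lower mean. With no minimum, 53 of the 67 members were lower and the median was -0.26. A gene was called where its adjusted p by limma was under 0.05 and its means differed by 2-fold or more on that scale, and this held for 0 members, beside 1.92% of all genes, and at an adjusted p under 0.05 alone there was 1 member, beside 7.81%. An unadjusted p under 0.05 was reached by 12 members. Of the members tested, 16 had all BDL libraries below all FO libraries, beside 10.3% of all genes, and 1 had them all above, beside 24.5%. The 16 include Hist1h4n and Hist2h2aa2, whose BDL and FO libraries overlapped once a near-identical copy was added. Of the 50 members, 6 passed the adjusted p with sort date as a block, all lower in BDL cells, and 1 of them was called. Percentages of all genes are from the fit without the block. Counts at an unadjusted p, with the block or under other settings, here and below, have no such background beside them.

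The comparison of MZ with FO cells sets the other mature subset of the spleen beside the same reference. There the members divided, with 22 higher and 28 lower in MZ cells, a median of -0.02 and a median over all genes of -0.01. By limma 0 members were called, beside 8.95% of all genes. An adjusted p under 0.05 was reached by 6 members, 3 higher and 3 lower, beside 27.2%, and an unadjusted one by 12. The block on sort date gave 9, with 4 higher and 5 lower. After quantile normalization the split was 1 higher and 3 lower. All MZ libraries lay above all FO libraries in 5 members, beside 23.6% of genes, and below them in 9, beside 22.6%.

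Between BDL and MZ cells, 22 members had a higher and 28 a lower mean in BDL cells, with a median of -0.25 beside 0.06 over all genes. The 1 called member, Hist1h4n, was lower in BDL cells, beside 7.83% of all genes called. At an adjusted p under 0.05 alone, 12 members passed, 11 lower and 1 higher in BDL cells, beside 28.2%, and 19 had an unadjusted p under 0.05. After quantile normalization the split was 6 lower and 2 higher. In 17 members every BDL library lay below every MZ library, beside 16.3% of genes, and in 7 every one lay above, beside 22.6%. With sort date as a block 16 members passed the adjusted p, 13 lower and 3 higher. With a minimum mean of 1 FPKM, which left 31 members, the median was 0.08. The libraries of each subset serve in 2 comparisons, so the 3 comparisons are not independent.

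**Figure D3:**
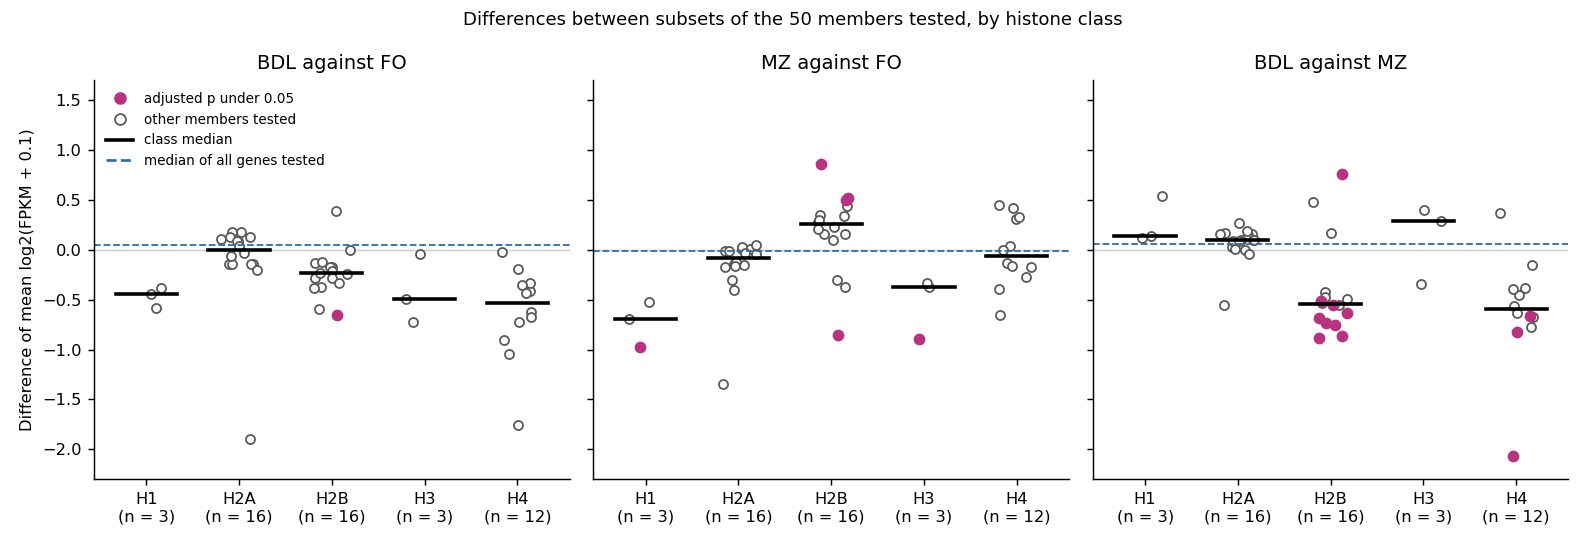
Difference of mean log2(FPKM + 0.1) of the 50 members tested, by histone class, in the 3 comparisons; each point is 1 gene, filled where its adjusted p is under 0.05, with the class median as a bar and the median of all 11519 genes as a dashed line. The H4 median is -0.53 in BDL against FO, the H1 median -0.70 and the H2B median 0.25 in MZ against FO, and the H2B median -0.55 in BDL against MZ.

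Linker histone H1 compacts nucleosome arrays, and 3 of its 6 genes were expressed above the minimum. Hist1h1c (chr13:23830676-23832235 in NCBIM37, plus strand, 1 exon), which encodes the subtype also called H1.2, was at 26.4, 28.8 and 31.0 FPKM in FO libraries, 17.8, 26.3 and 19.9 in BDL libraries and 12.5, 13.7 and 17.8 in MZ libraries. The 3 subsets did not overlap, with FO highest and MZ lowest, although BDL replicate 2 came just short of the lowest FO library and BDL replicate 1 just above the highest MZ library. In MZ against FO the difference was -0.98 ± 0.17 (SE, adjusted p = 0.00377), and its adjusted p was at most 0.019 under all 20 alternatives. In BDL against FO it was -0.44 ± 0.17 (adjusted p = 0.161), or -0.60 (adjusted p = 0.0655) without BDL replicate 2, with a range of 0.0655 to 0.333 over the alternatives.

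Hist1h1d and Hist1h1e, which encode further somatic linker subtypes, had smaller values in the same order of means. Hist1h1d was at 2.09, 2.53 and 2.27 FPKM in FO, 1.32, 2.21 and 1.13 in BDL and 1.15, 1.48 and 1.51 in MZ libraries. Hist1h1e was at 2.48, 2.77 and 3.09 in FO, 1.91, 3.12 and 1.53 in BDL and 1.93, 1.71 and 2.06 in MZ libraries. In both genes BDL replicate 2 overlapped the FO libraries, whereas the other 2 BDL libraries lay below them. Without that library the difference from FO was -0.86 (adjusted p = 0.0226) for Hist1h1d and -0.66 (adjusted p = 0.0394) for Hist1h1e, and with it -0.59 (adjusted p = 0.165) and -0.39 (adjusted p = 0.341). Leaving out that library was the only 1 of 20 alternatives that passed, and the highest adjusted p was 0.361 for Hist1h1d and 0.607 for Hist1h1e. Hist1h1a, Hist1h1b and the testis subtype gene Hist1h1t had means of 0.131, 0.178 and 0.0200 FPKM and were not tested, and in Hist1h1a and Hist1h1t all BDL libraries lay above all FO libraries at these low levels.

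H2A pairs with H2B in the octamer, and 16 of its 18 genes were tested. The level lay in 3 genes outside the large chromosome 13 cluster. Hist3h2a (chr11:58768187-58770176, plus strand, 1 exon) was at 20.0, 18.8 and 24.6 FPKM in FO, 16.8, 17.7 and 23.1 in BDL and 14.0, 14.7 and 19.3 in MZ libraries, with overlapping groups in every comparison. Within each of the 3 sort dates the MZ library was nevertheless the lowest. Its difference was -0.41 from FO (adjusted p = 0.122) and, as BDL minus MZ, 0.27 (adjusted p = 0.291). With sort date as a block these passed at 0.00272 and 0.0134, whereas over the alternatives the adjusted p reached 0.318 and 0.615. Hist2h2aa1 (chr3:96049461-96050038, plus strand, 1 exon) was at 12.8, 9.86 and 12.6 in FO, 9.98, 11.4 and 10.3 in BDL and 9.57, 9.02 and 9.71 in MZ libraries. All MZ libraries lay below the others for this gene, at -0.30 ± 0.11 against FO (adjusted p = 0.0778). Hist2h2ac followed at a mean of 4.05 FPKM and overlapped between all subsets.

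By limma no H2A gene had an adjusted p under 0.05 in any comparison, while 0, 2 and 0 had an unadjusted one in BDL against FO, MZ against FO and BDL against MZ. The block on sort date let 1 pass in each of the last 2, which was Hist3h2a in both. The class median was -0.0010 in BDL against FO, with 8 genes higher and 8 lower, -0.08 in MZ against FO and 0.09 in BDL against MZ, where 13 of 16 genes were higher in BDL cells but 6 of 16 after upper quartile scaling, with a median of -0.0067. The genes of the chromosome 13 cluster were also close to each other in level, from 0.686 FPKM for Hist1h2ak to 1.95 for Hist1h2ai among the 11 of them that were tested. They varied little between libraries. Over the 14 tested H2A genes with a mean of 0.5 to 5 FPKM, the median SD within a subset was 0.109 on the log2 scale, whereas it was 0.208 for 14 H2B genes, 0.309 for 12 H4 genes and 0.219 for the 3641 genes in that range. Most H2A genes are near copies, with a median identity of 91.3% over the 171 pairs of annotated H2A coding sequences and 2 pairs at 100%. Such likeness is not particular to H2A, since the median was 91.4% for H2B, 97.5% for H3 and 93.9% for H4 pairs, and 70.7% for H1. How the reads of such copies were divided among them was not tested.

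H2B completes the dimer with H2A. Of 16 genes tested, 13 were lower in BDL than in MZ cells, 8 of them at an adjusted p under 0.05, and 3 were higher, 1 of them at that level, beside 28.2% of all genes in either direction. The count of 8 lay between 3, without MZ replicate 1, and 9 over the 20 alternatives. The median was -0.55 and lay between -0.66 and -0.30 over the 20 alternatives. Hist1h2bc (chr13:23776068-23784357, plus strand, 2 exons) was at 5.99, 6.01 and 5.49 FPKM in FO, 6.14, 7.62 and 4.15 in BDL and 10.4, 13.1 and 8.84 in MZ libraries. The MZ libraries all lay above the other 6, by 0.86 ± 0.22 against FO (adjusted p = 0.0207, 0.00355 to 0.067 over the alternatives) and by 0.87 against BDL (BDL minus MZ -0.87 ± 0.22, adjusted p = 0.0198, 0.00343 to 0.071 over the alternatives), while BDL and FO overlapped.

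Hist1h2bh (chr13:23634793-23635228, minus strand, 1 exon) was the only member with an adjusted p under 0.05 in BDL against FO. It was at 1.44, 1.08 and 1.16 FPKM in FO, 0.780, 0.792 and 0.651 in BDL and 1.28, 1.44 and 1.63 in MZ libraries, from about 18 to 46 fragments a library. BDL libraries lay below all others. The difference was -0.65 ± 0.16 from FO (adjusted p = 0.0455) and -0.88 ± 0.16 from MZ (adjusted p = 0.00443). The first held in 6 of 20 alternatives, with an adjusted p of 0.0275 to 0.156, and without BDL replicate 2 it was -0.70 (adjusted p = 0.064). The second held in all 20.

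Hist1h2bg, at 4.39, 2.99 and 3.91 FPKM in FO, 2.76, 2.36 and 2.19 in BDL and 4.96, 4.29 and 3.39 in MZ libraries, had the same shape at a higher level. All BDL libraries lay below the rest. Its difference was -0.76 ± 0.18 from MZ (adjusted p = 0.016) and -0.60 ± 0.18 from FO (adjusted p = 0.0869). With sort date as a block the adjusted p of the latter was 0.0273, in a range of 0.0273 to 0.268 over the alternatives. Hist1h2bf, Hist1h2bk, Hist1h2bl, Hist1h2bn and Hist1h2bp were the other H2B genes lower in BDL than in MZ cells at an adjusted p under 0.05, at -0.69, -0.63, -0.74, -0.51 and -0.56. The first 3 passed in at least 17 alternatives, whereas Hist1h2bn passed in 11 of 20 with an adjusted p up to 0.191 and Hist1h2bp in 11 of 19 with one up to 0.228. Hist1h2bf and Hist1h2bl were also higher in MZ than in FO cells, by 0.52 ± 0.16 (adjusted p = 0.0418) and 0.50 ± 0.15 (adjusted p = 0.0408). These held in 11 and 12 of 20 alternatives, with adjusted p ranging from 0.0189 to 0.116 and from 0.0134 to 0.342, and were lost after quantile normalization.

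The 3 H2B genes with a higher mean in BDL than in MZ cells, Hist2h2be, Hist3h2ba and the pseudogene Hist3h2bb-ps, were those tested outside chromosome 13. Hist2h2be (chr3:96025044-96027661, plus strand, 1 exon), in which no stem-loop of the searched form was found, was at 2.86, 3.03 and 3.13 FPKM in FO, 3.77, 4.54 and 3.64 in BDL and 2.66, 1.67 and 2.73 in MZ libraries. The subsets did not overlap, with BDL highest and MZ lowest, and BDL exceeded MZ by 0.76 ± 0.18 (adjusted p = 0.016). Among the members tested it was the 1 whose BDL libraries all lay above all FO libraries, by 0.39 ± 0.18 (adjusted p = 0.234). Hist3h2ba (chr11:58762413-58763032, plus strand, 1 exon) was at 7.97, 9.68 and 6.26 in FO, 6.42, 5.65 and 5.99 in BDL and 4.02, 3.80 and 5.19 in MZ libraries. Its MZ libraries were the lowest, at -0.85 ± 0.17 from FO (adjusted p = 0.00684), which held in all 20 alternatives.

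H3 carries most of the modified tail residues by which chromatin states are told apart, and its clustered genes were the lowest class. Only Hist1h3a, Hist2h3b and Hist2h3c2 were tested. Hist1h3a (chr13:23853722-23854255, minus strand, 1 exon) was at 1.13, 0.961 and 1.01 FPKM in FO, 0.728, 0.631 and 0.432 in BDL and 0.761, 0.895 and 0.676 in MZ libraries. FO libraries lay above all others, with -0.73 ± 0.20 in BDL (adjusted p = 0.0693, and 0.0336 with sort date as a block, in a range of 0.0336 to 0.209) and -0.38 ± 0.20 in MZ cells (adjusted p = 0.219). Hist2h3c2, annotated as an unprocessed pseudogene that is transcribed, was at 0.826, 0.906 and 0.624 in FO, 0.570, 0.513 and 0.486 in BDL and 0.521, 0.300 and 0.324 in MZ libraries, and was lower in MZ than in FO cells by -0.89 ± 0.24 (adjusted p = 0.0246, 0.00969 to 0.0755 over the alternatives). With no minimum, 11 of the 12 H3 genes had a lower mean in BDL than in FO cells and 9 a lower mean than in MZ cells, where the class median turned from 0.29 over the 3 genes tested to -0.28.

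H4 forms the histone pair with H3 at the centre of the octamer and is encoded by many genes for an identical protein. All 12 H4 genes tested had a lower mean in BDL than in FO cells, beside 43.1% of all genes, with a median of -0.53. In 8 of them the groups did not overlap, beside 10.3% of all genes with BDL lower. The median lay between -0.91 and -0.27 over the alternatives and was -0.42 without BDL replicate 2. The 8 were Hist1h4c, Hist1h4d, Hist1h4f, Hist1h4h, Hist1h4i, Hist1h4j, Hist1h4k and Hist1h4n. For Hist1h4n the groups overlapped once a near-identical copy was added, as given below. No H4 gene passed the adjusted p in that comparison, beside 7.81% of all genes. An unadjusted p under 0.05 was reached by 7, for which no share of all genes is given. Against MZ cells 11 of 12 were lower in BDL cells, beside 44.0% of all genes, with a median of -0.60. Hist1h4f, Hist1h4i and Hist1h4n had an adjusted p under 0.05, beside 28.2% of all genes in either direction. Hist1h4f kept it in 10 of 19 alternatives. Between MZ and FO cells 5 were higher and 7 lower, with a median of -0.07.

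Hist1h4c (chr13:23789929-23790323, minus strand, 1 exon) was at 1.73, 1.24 and 2.01 FPKM in FO, 1.09, 0.722 and 0.509 in BDL and 1.25, 0.805 and 0.986 in MZ libraries, from about 13 to 46 fragments a library. Its BDL libraries lay below all FO libraries and overlapped with MZ. The difference from FO was -1.04 ± 0.28 (adjusted p = 0.0644). With sort date as a block the adjusted p was 0.0303 and the gene was called, and it ranged from 0.0303 to 0.19 over the alternatives. Hist1h4d (chr13:23673467-23673859, plus strand, 1 exon) was at 2.72, 1.76 and 1.61 in FO, 1.15, 0.736 and 1.20 in BDL and 2.38, 1.44 and 1.67 in MZ libraries, with BDL below both other subsets. It differed by -0.91 ± 0.27 from FO (adjusted p = 0.0817) and by -0.77 ± 0.27 from MZ (adjusted p = 0.0653). With the block these were 0.0167 and 0.0119, at the low end of ranges that reached 0.245 and 0.207.

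Hist1h4i (chr13:22132685-22133221, minus strand, 1 exon) had the highest mean of the class and narrow groups. It was at 1.92, 1.80 and 2.36 FPKM in FO, 1.48, 1.42 and 1.56 in BDL and 2.45, 2.65 and 3.11 in MZ libraries. The 3 subsets did not overlap, with MZ highest and BDL lowest. BDL lay below MZ by -0.83 ± 0.13 (adjusted p = 0.00243), which held in all 20 alternatives, and below FO by -0.41 ± 0.13 (adjusted p = 0.103, and 0.0268 with the block, in a range of 0.0268 to 0.249).

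Hist1h4n (chr13:21923636-21924065, minus strand, 1 exon) was the only member called in any of the 3 comparisons. It was at 1.54, 0.846 and 1.01 FPKM in FO, 0.0436, 0.646 and 0.315 in BDL and 1.23, 1.42 and 1.50 in MZ libraries, and differed between BDL and MZ by -2.06 ± 0.53 (adjusted p = 0.0215, 0.00481 to 0.0675 over the alternatives). Its coding sequence is identical to that of Hist1h4m (chr13:21903615-21904016, plus strand). Hist1h4m was at 0.00268, 0.312 and 0.249 FPKM in FO, 1.13, 0.0292 and 0.562 in BDL and at most 0.000543 in MZ libraries. The BDL library with the lowest value for the first gene had the highest for the second. Their sum was 1.54, 1.16 and 1.25 in FO, 1.18, 0.675 and 0.877 in BDL and 1.24, 1.42 and 1.50 in MZ libraries. For the sum BDL and FO overlapped, with 1.18 in BDL replicate 1 and 1.16 in FO replicate 2. BDL lay below MZ in all libraries, by -0.58 (adjusted p = 0.0643), so that the call was lost. Leaving out MZ replicate 1 or MZ replicate 3 also ended it.

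In the same way, Hist2h2aa2 (chr3:96043639-96044216, minus strand) has a transcript identical to that of Hist2h2aa1. It ranged from under 0.001 FPKM in a BDL library to 1.71 in an FO library, and its difference of -1.90 ± 1.07 between BDL and FO (adjusted p = 0.318) was the largest in that comparison. The sum of both copies was 13.4, 11.0 and 14.3 FPKM in FO, 10.5, 11.4 and 10.8 in BDL and 9.57, 9.50 and 11.4 in MZ libraries, where BDL and FO overlapped. Over all coding members, 48 had another member with at least 95% identical coding sequence and 17 one with at least 99%. Values of single members of such groups are therefore uncertain, and the same holds for members that overlap others, such as Hist2h3c1 (chr3:96049477-96052431), whose annotated transcript spans Hist2h2aa1 on the same strand.

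Many H2A and H2B genes stand in pairs that are transcribed away from each other. In 12 such pairs the annotated starts were 168 to 306 nt apart. In BDL against MZ, the H2B gene had a lower difference than its H2A partner in 11 of the 12 pairs, with medians of -0.59 for H2B and 0.09 for H2A. In MZ against FO it was higher in 11 of 12, with medians of 0.34 and -0.03, and in BDL against FO it was lower in 9 of 12, with medians of -0.20 and 0.04. The exception against MZ was the pair of Hist2h2be and Hist2h2ac, at 0.76 and 0.03. The pair of Hist1h2bc and Hist1h2ac, 251 nt apart, stood at -0.87 and -0.01. In the pairs of Hist1h2br and of Hist1h2aa, 1 gene lay under the minimum for testing, and no test was made over pairs.

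**Figure D4:**
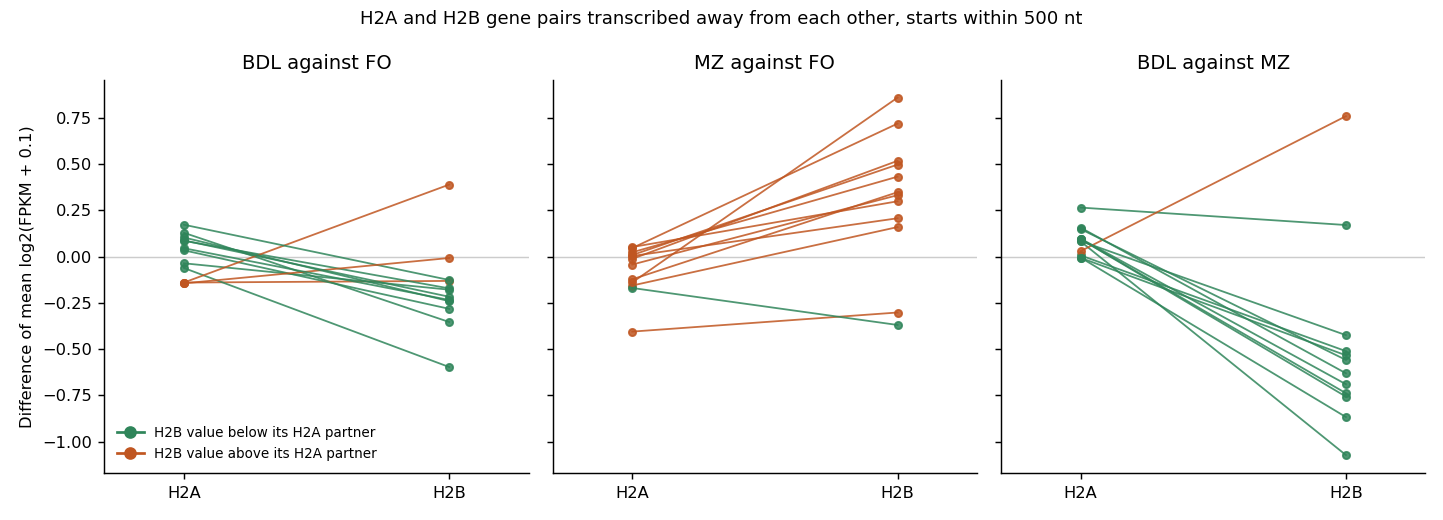
Difference of mean log2(FPKM + 0.1) for 12 pairs of H2A and H2B genes with starts within 500 nt on opposite strands, each line joining the partners of 1 pair. In BDL against MZ 11 lines run downward from H2A to H2B, with medians of 0.09 and -0.59.

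Promoters of 60 members could be matched in the RefSeq table of GRCm38.p6, which holds 250 bases before to 50 after each start. The letters ATTTGCAT, the octamer read by Oct-1 and Oct-2, occurred on either strand in 7 of 15 H2B and 7 of 17 H2A promoters, in 0 of the 6 H1, 10 H3 and 12 H4 promoters, and in 1.74% of all 32851 promoters. CCAAT occurred in all 48 promoters outside H4 and in 3 of 12 H4 promoters, beside 37.4% of all, and TATAAA in 35 of the 60 members, beside 13.6%. Both strands were searched, and a match describes the letters and not binding. The 6 tested H2B genes with the octamer and the 7 without it had medians of -0.31 and -0.22 in BDL against FO, 0.22 and 0.33 in MZ against FO, and -0.55 and -0.56 in BDL against MZ, and these differences were not tested. The 250 bases before the start are shown for a linker gene, an H2B gene and an H4 gene whose values are given above, on the strand of the gene and with matches to these 3 motifs, none of which overlap, in capitals: Hist1h1c at chr13:23738557-23738806, Hist1h2bg at chr13:23571150-23571399 and Hist1h4d at chr13:23581318-23581567, all in GRCm38.p6 and on the plus strand.
Hist1h1c: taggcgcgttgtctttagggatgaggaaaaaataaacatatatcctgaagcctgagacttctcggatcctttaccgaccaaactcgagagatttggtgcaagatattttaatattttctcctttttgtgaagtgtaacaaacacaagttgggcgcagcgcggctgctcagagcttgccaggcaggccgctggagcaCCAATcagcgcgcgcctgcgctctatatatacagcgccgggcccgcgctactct
Hist1h2bg: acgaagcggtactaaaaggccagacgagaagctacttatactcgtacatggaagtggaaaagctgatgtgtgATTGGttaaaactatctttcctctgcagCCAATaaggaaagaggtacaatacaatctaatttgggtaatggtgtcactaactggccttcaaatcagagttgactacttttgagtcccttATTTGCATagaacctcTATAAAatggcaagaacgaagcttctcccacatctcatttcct
Hist1h4d: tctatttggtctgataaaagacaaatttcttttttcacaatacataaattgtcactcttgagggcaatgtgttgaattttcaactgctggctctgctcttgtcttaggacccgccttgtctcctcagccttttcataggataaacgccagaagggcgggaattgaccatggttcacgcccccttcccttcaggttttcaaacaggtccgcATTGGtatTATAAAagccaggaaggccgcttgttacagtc
Hist1h2bg carries all 3 motifs, Hist1h4d an inverted CCAAT and TATAAA, and Hist1h1c a CCAAT alone.

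Of 16 genes for histone variants outside the clusters, 15 were in the table and 9 were tested, while the other 6 lay under the minimum. In BDL against FO 8 were higher and 1 lower, with a median of 0.39 and 2 at an adjusted p under 0.05, both higher, beside 7.81% of all genes. That count was 6 with sort date as a block and 1 without BDL replicate 2. H2afz, which encodes H2A.Z, was at 39.4, 42.3 and 47.8 FPKM in FO, 60.9, 75.6 and 63.5 in BDL and 59.4, 68.2 and 63.1 in MZ libraries. FO lay below all other libraries, by 0.62 ± 0.11 against BDL (adjusted p = 0.0166) and 0.56 ± 0.11 against MZ (adjusted p = 0.00751). H3f3a, 1 of 2 genes for H3.3, was at 611, 682 and 660 in FO, 815, 1216 and 799 in BDL and 245, 332 and 249 in MZ libraries, and was called lower in MZ than in FO cells, at -1.25 ± 0.19 (adjusted p = 0.0017). H3f3b, the other gene for the same protein, was at 396 to 461 FPKM in FO, 372 to 435 in BDL and 456 to 595 in MZ libraries and passed no test. H2afx and the linker variant gene H1f0 passed none either, at 0.52 ± 0.16 (adjusted p = 0.0899) and 0.39 ± 0.22 (adjusted p = 0.327) in BDL against FO. Cenpa, the centromeric H3 variant, was called lower in MZ cells than in FO, at -1.08 ± 0.34 (adjusted p = 0.0457), and than in BDL cells, where BDL minus MZ was 1.10 ± 0.34 (adjusted p = 0.0415). Both calls of Cenpa were lost after upper quartile scaling (adjusted p = 0.0622 and 0.0738) and after quantile normalization (adjusted p = 0.0569 and 0.0708), and with sort date as a block the values were 0.00224 and 0.00213.

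Factors that transcribe, process or degrade clustered histone mRNA were taken as a second list. Of 28 tested, 1 passed the adjusted p in BDL against FO, beside 7.81% of all genes, or 7 with sort date as a block, and the median was 0.10. The 1 was Ccna2, the cyclin of S and G2 phase, at 0.70 ± 0.13 (adjusted p = 0.0173). Slbp, which binds the stem-loop, was at 17.9, 18.5 and 22.8 FPKM in FO, 20.9, 21.3 and 22.2 in BDL and 18.5, 20.3 and 19.7 in MZ libraries, where FO overlapped with both other subsets and BDL lay above MZ. Its differences were 0.13 in BDL against FO (adjusted p = 0.463) and 0.14 in BDL against MZ (adjusted p = 0.339). Npat, the coactivator that is specific to the clustered genes, lay between 3.88 and 4.70 FPKM in every library. Lsm10 and Lsm11, the proteins particular to the U7 particle that cuts the 3′ end, had differences of 0.60 ± 0.24 (adjusted p = 0.174) and 0.11 ± 0.17 (adjusted p = 0.714), and Casp8ap2, a histone locus body component, 0.05 ± 0.14 (adjusted p = 0.87). In BDL against MZ 7 of 28 were higher and 0 lower at an adjusted p under 0.05, beside 28.2% of all genes. The 7 became 3 after upper quartile scaling, 4 after quantile normalization and 14 with sort date as a block.

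Histone chaperones carry new histones to DNA. In BDL against FO 30 of 34 tested were higher, with a median of 0.28, and 4 passed the adjusted p, all higher, beside 7.81% of all genes. That count was 15 with sort date as a block and 2 without BDL replicate 2. Chaf1a, a subunit of the assembly factor CAF-1, was at 1.11, 1.05 and 0.972 FPKM in FO, 2.23, 2.22 and 2.34 in BDL and 2.43, 2.13 and 2.06 in MZ libraries. FO lay below all others, by 1.05 ± 0.11 against BDL (adjusted p = 0.00127) and 1.01 ± 0.11 against MZ (adjusted p = 0.000199), and the gene was called in both. Both calls were near the 2-fold minimum. The call against BDL was lost after upper quartile scaling, at 0.98 (adjusted p = 0.00269). The call against MZ was lost after quantile normalization, at 0.85 (adjusted p = 0.000607). Asf1b, a chaperone of H3 and H4, was higher by 0.67 ± 0.15 in BDL than in FO cells (adjusted p = 0.0298). Without BDL replicate 2 its difference was 0.55 and did not pass (adjusted p = 0.0578).

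Of 44 genes listed for DNA replication and S phase, among them the general proliferation marker Mki67, 41 were tested. In BDL against FO 35 were higher and 6 lower, with a median of 0.42 where the clustered histone genes had -0.23, and 17 passed the adjusted p, all higher, 6 of them called, beside 7.81% and 1.92% of all genes. The block on sort date gave 24 and the fit without BDL replicate 2 gave 16. Mki67, which marks cells outside G0, was at 0.517, 0.451 and 0.571 FPKM in FO, 2.99, 3.30 and 3.22 in BDL and 5.10, 3.53 and 4.89 in MZ libraries. FO was far below the rest, by 2.42 ± 0.15 against BDL (adjusted p = 0.000141) and 2.90 ± 0.15 against MZ (adjusted p = 5.69e-06). The other 3 of the 4 largest differences from FO were those of Dtl, Top2a and Uhrf1, at 2.05, 1.96 and 1.74. Mcm5, a helicase subunit, was highest in BDL cells, at 12.3 to 13.0 FPKM against 9.08 to 10.2 in FO and 8.07 to 8.23 in MZ libraries. In MZ against FO 12 genes of the list were higher and 5 lower at an adjusted p under 0.05, beside 27.2% of all genes, with a median of 0.10. Of these, 8 higher and 2 lower were called, beside 8.95%. These 4 lists and the clustered genes were compared on the same libraries, and the difference between their medians was not tested.

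**Figure D5:**
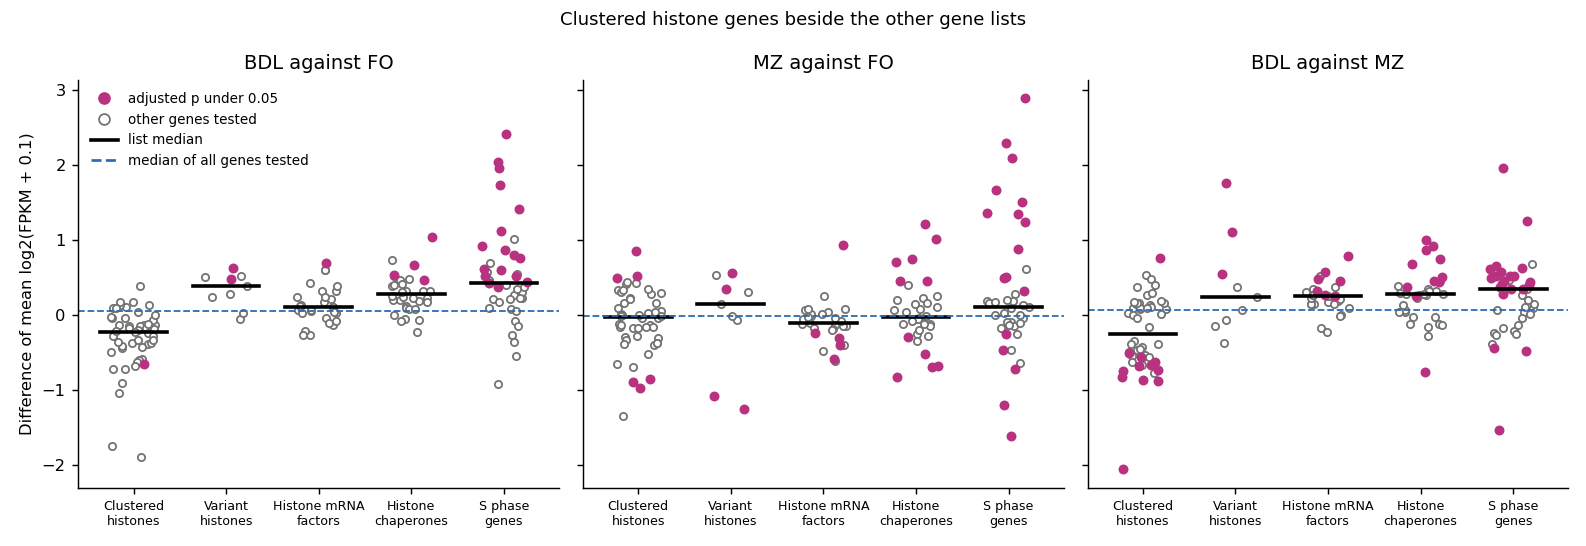
Difference of mean log2(FPKM + 0.1) for the 50 clustered histone genes tested beside 9 variant histone genes, 28 histone mRNA factors, 34 chaperones and 41 S phase genes; each point is 1 gene, filled where its adjusted p is under 0.05, and the bar is the list median. In BDL against FO the medians are -0.23, 0.39, 0.10, 0.28 and 0.42, in that order.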

How the data were processed

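The labels give single end reads, whereas the methods of the study describe a file for each read direction. Reads were aligned to mm9 with TopHat2 2.1.0, and, per the labels, the authors deposited gene-level FPKM from Cufflinks. The Cufflinks version and annotation are not given in the sources used here. Depth was inferred from the steps between low FPKM values, since no counts were used here. Repeated rows of a symbol were averaged, and genes with a mean of at least 0.5 FPKM were tested on log2(FPKM + 0.1) with limma 3.58.1 (R 4.3.3; linear model on subset over all 9 libraries, moderated with a trend, Benjamini-Hochberg adjustment). A fold change on this scale understates the change of low genes. Called means an adjusted p under 0.05 and at least 2-fold. The exact permutation test of 3 against 3 libraries cannot go below p = 0.1. Libraries with the same replicate number share a number in their titles, taken as a sort date, which pairs them. Their deviations from the subset means correlated at -0.0531 to 0.242 over all genes tested and at -0.311 to 0.614 over the 50 members. Sort date as a block was an alternative. The others were the constant added, the minimum, upper quartile and quantile normalization, the 6 libraries of a comparison alone, eBayes without a trend, rows as deposited, leaving out each library and, added after the data were seen, near-identical copies summed. Tested on simulated data for BDL against FO, the fit recovered 86% of 200 genes of 11519 changed by 1.5 on the log2 scale and made 5 false calls. The simulated noise was independent between genes and libraries. Apart from Hist1h4n and Hist2h2aa2, the members differed from FO by less than 1.5, so recovery of differences of their size was not tested. Positions, stem-loops and coding identities came from the NCBIM37 genome with its GENCODE annotation, and promoters from RefSeq on GRCm38.p6, for which 60 of 67 members matched. The rule named members that were called, had at least 5 FPKM or were the highest 2 of their class, and let those whose BDL and FO libraries did not overlap be named; other members, such as those past the adjusted p alone, pairs and copies, were named after their values were seen. Members and lists were chosen with earlier results of these data known. Plots used matplotlib 3.10.9 under Python 3.11.15.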

Additional observations from a re-analysis of the deposited data

How the results depend on the processing

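The number of called members was small under every setting. In BDL against FO it was 0, and 1 with sort date as a replicate block (Hist1h4c) and 1 by adjusted p alone (Hist1h2bh). Leaving out single libraries gave 0 to 1, with Hist1h4c without BDL replicate 1 and Hist1h4n without BDL replicate 2. In MZ against FO it was 0, and 1 with 0.01 added in place of 0.1 and 1 after quantile normalization (Hist2h3c2 in both) and 6 by adjusted p alone, and 0 to 2 without single libraries. In BDL against MZ it was 1, and 0 with 1 added, 0 at a minimum of 1 FPKM, 0 with the 6 libraries of the comparison alone, 0 with copies summed, 2 with no minimum (Hist1h2br and Hist1h4n), 12 by adjusted p alone, and 0 to 2 without single libraries.

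The median difference of members kept its sign in BDL against FO under all 20 alternatives and lay between -0.31 and -0.13 without single libraries. In MZ against FO it was -0.20 after quantile normalization, 0.01 after upper quartile scaling, and -0.06 to -0.01 without single libraries. In BDL against MZ it was 0.084 at a minimum of 1 FPKM and -0.32 to -0.067 without single libraries, the last without MZ replicate 3. The causes of these shifts were not tested. For single members, 87 differences were followed and not those of all members tested. Their members were picked mainly by level, by passing the adjusted p or by BDL and FO libraries that did not overlap. Among their values under alternatives, 1563 kept their direction and side of the threshold. Of the rest, 79 no longer passed it, 38 newly passed it and 21, in 10 differences, had the other sign. None of these 10 had an adjusted p under 0.05 as reported or with the sign changed. After quantile normalization Hist1h2bb turned to -0.090 in MZ against FO and Hist1h4h to 0.00977 in BDL against MZ, and after upper quartile scaling Hist2h2ac turned to -0.075 in BDL against MZ. Without single libraries, BDL against FO ranged from -0.20 to 0.23 for Hist1h2bc, -0.23 to 0.010 for Hist1h2bp and -0.31 to 0.24 for Hist2h3b. MZ against FO ranged from -0.083 to 0.30 for Hist1h2bb and -0.33 to 0.086 for Hist1h4d. BDL against MZ ranged from -0.16 to 0.30 for Hist1h1d, -0.14 to 0.35 for Hist1h1e, -0.31 to 0.068 for Hist1h4h, -1.67 to 0.41 for Hist2h2aa2 and -0.086 to 0.11 for Hist2h2ac.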
